A study of Mus musculus with 8 samples.

Results

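Gapless α-chain joins were the TCR α-chain clonotypes in which the deposited V part and J part of the CDR3 met or overlapped, so that no nucleotide lay between them. They were chosen by 1 rule, the start of the J part minus the end of the V part minus 1 being 0 or less, and the remaining clonotypes, with 1 or more nucleotides in between, are called gapped joins. Of 53249 α-chain clonotypes in 8 mice, 16322 were gapless (30.7%), and they held 26326 of 80000 reads (32.9%). A clonotype here is a CDR3 nucleotide sequence with its V and J segment in 1 mouse. The cells were endogenous CD8+ T (en-T) cells from the inguinal lymph nodes and spleen of female C57BL/6 mice, 6 to 8 weeks old and bearing the mouse melanoma B16-F10. All mice were lymphodepleted with cyclophosphamide (CTX, 300 mg/kg) on day 3 and were then given, on day 5, transgenic Pmel-1 CD8+ T cells marked by Thy1.1, whose receptor recognises a melanoma antigen, and 10000 IU of IL-2 a day. The CTXpre group (n = 3 mice) had no other treatment, whereas CD4+ cells were depleted in the CTXpre/CD4post group (n = 5 mice) by 200 μg of the antibody GK1.5 on days 10, 17 and 24. On day 25 the cells lacking Thy1.1 were sorted, and 1 α-chain library per mouse, of 10000 reads after down-sampling, held 5043 to 7695 clonotypes. CTXpre/CD4post mice 1 and 2 had 147 clonotypes in common that no other mouse had, of which 55 were gapless, against 50 to 132 in the remaining 27 pairs, 24 to 62 of them gapless, so sharing between mice is given with and without this pair.

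When a T cell assembles its α-chain gene, the cut ends of a V and a J segment are trimmed and joined, and the enzyme terminal deoxynucleotidyl transferase can add N nucleotides that no gene encodes. Hairpins at the cut ends, when opened off centre, leave short palindromic (P) nucleotides at ends that are not trimmed. Joins without N nucleotides are known from fetal and newborn thymus, where the transferase is low, and the same germline-encoded join can arise independently in many animals.

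The sequences of the joins show what the rule selected, and those that carry the results are given here 5′ to 3′ beside the germline ends they came from (GRCm38, plus strand, GENCODE gene models). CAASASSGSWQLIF, the most-read of the 10 gapless joins found in all 8 mice, is the whole germline end of TRAV14N-1 at chr14:53167166-53167178 followed by the whole start of TRAJ22 at chr14:54197248-54197276, with the J part in capitals.
TRAV14N-1 germline end: tgtgcagcaagtg
TRAJ22 germline start: catcttctggcagctggcaactcatcttt
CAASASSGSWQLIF: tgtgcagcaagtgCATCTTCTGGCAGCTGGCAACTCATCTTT
In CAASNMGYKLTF, from TRAV7D-2 (chr14:52684460-52684472) and TRAJ9 (chr14:54209393-54209419), 4 nucleotides are common to both germline ends at the junction and were drawn with the J part.
TRAV7D-2 germline end: tgtgcagcaagca
TRAJ9 germline start: agcaacatgggctacaaacttaccttc
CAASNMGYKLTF: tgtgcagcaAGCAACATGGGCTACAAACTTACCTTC
CALSDRYSNNRLTL was gapless in the deposited positions, with an overlap of 8 nucleotides, but matched the germline of TRAV12N-3 (chr14:53241231-53241244) over 14 nucleotides and of TRAJ7 (chr14:54211470-54211497) over 25, and the 3 unmatched nucleotides in between are in capitals.
TRAV12N-3 germline end: tgtgctctgagtga
TRAJ7 germline start: ggactacagcaacaacagacttactttg
CALSDRYSNNRLTL: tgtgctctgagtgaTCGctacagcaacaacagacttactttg
For comparison, the 3 gapped joins found in the most mice were nucleotide forms of 1 amino acid sequence, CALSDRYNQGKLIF, from TRAV12N-3 and TRAJ23, with the unmatched nucleotides in capitals.
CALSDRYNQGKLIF form 1: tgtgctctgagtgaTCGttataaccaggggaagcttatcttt
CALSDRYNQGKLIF form 2: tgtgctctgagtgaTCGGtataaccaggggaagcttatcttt
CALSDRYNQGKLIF form 3: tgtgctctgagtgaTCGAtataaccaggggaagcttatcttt
Of the 3 or 4 unmatched nucleotides of CALSDRYSNNRLTL and of each of these 3 forms, the first 2 were the reverse complement of the last 2 germline V nucleotides, which is the relation that defines P nucleotides. V names are uncertain where duplicated copies on chromosome 14 are nearly identical.

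A gapless position was not the same as a join made of germline sequence alone. Of the gapless joins, 11387 (69.8%) had V and J parts that overlapped, by up to 31 nucleotides, and 4935 had parts that met exactly. When the CDR3 was compared with the germline ends nucleotide by nucleotide, 6407 gapless joins (39.3%) matched V and J throughout, and 9915 (60.7%) held at least 1 nucleotide that matched neither. By definition, a deposited part ran past its germline match in all of these 9915. It was the V part alone in 40.7%, the J part alone in 33.1% and both in 26.2%. A part could run past a mismatch or beyond the end of a segment matched in full. V was matched to its end in 4038 of the 9915 and J in 3166. The unmatched nucleotides were few. There was 1 in 2346 gapless joins, 2 in 3134 and 3 in 2161. Of the gapped joins, 189 (0.512%) matched the germline throughout. No gapless join carried the name of a D segment, for which the rule leaves no room, against 1054 gapped joins. Results are therefore given for all gapless joins and for the germline-matched and mismatched ones separately, a division chosen after the data were seen.

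Each mouse gave nearly the same share of gapless joins. They were 30.5%, 30.1% and 31.2% of clonotypes in the CTXpre mice and 31.4%, 29.8%, 31.1%, 30.6% and 30.8% in the CTXpre/CD4post mice, and the ranges overlapped. The means were 30.6% ± 0.571 (SD, n = 3) and 30.7% ± 0.609 (SD, n = 5), and did not differ beyond the spread between mice (p = 0.786, exact Mann–Whitney U-test, two-sided). By reads, gapless joins took 33.4%, 32.8% and 34.0% in the CTXpre mice. In the CTXpre/CD4post mice they took 31.8%, 32.8%, 34.5%, 32.7% and 31.3% of reads, with means of 33.4% ± 0.605 and 32.6% ± 1.21 (exact p = 0.25, 0.625 after Benjamini-Hochberg adjustment over 5 comparisons of groups). The 95% Wilson interval of a share of reads was 30.4 to 32.2% in the lowest mouse and 33.5 to 35.4% in the highest. These reads carry no molecular identifiers, so intervals cover counting error only. A clonotype of 1 read was counted as found in a mouse, although a clonotype listed in no row of a library may have a share of up to 3 of 10000 reads (0.03%). Germline-matched clonotypes made up 12.1% ± 0.383 of clonotypes in CTXpre and 12.6% ± 0.186 in CTXpre/CD4post mice (exact p = 0.0714), and their lowest and highest values were 11.8 and 12.5% against 12.3 and 12.8%. With 3 and 5 mice the smallest p this test can give is 0.0357. Among the gapless joins alone, 37.8 to 38.7% were germline-matched in single CTXpre mice and 39.2 to 40.7% in CTXpre/CD4post mice. These ranges did not overlap, with means of 38.3% ± 0.439 and 40.0% ± 0.696, and the difference was not tested.

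Gapless joins were found in another mouse about 3 times as often as gapped joins. The same nucleotide sequence, V and J occurred in at least 1 of the other 7 mice for 27.4% ± 1.20 of gapless joins (SD, n = 8 mice) and for 8.99% ± 0.586 of gapped joins, a ratio of 3.05. In single mice the gapless share ran from 25.3 to 29.1% and the gapped share from 8.33 to 9.86%, so the 2 classes did not overlap. The difference of 18.4 points was positive in 8 of 8 mice (exact two-sided sign-flip permutation test, p = 0.0078, the smallest that 8 mice can give). A clonotype common to 2 mice counts in both, so the 8 values are not fully independent. With CTXpre/CD4post mice 1 and 2 not matched to each other the shares were 26.7 and 8.49% and the difference was 18.2 points. Among clonotypes of 1 read the shares were 22.6 and 7.59%, and among CDR3s of 14 amino acids, the most frequent length, they were 30.7 and 10.4%, each with the difference positive in every mouse (exact p = 0.0078). Between groups, 27.5% ± 1.05 of gapless joins were found in another mouse in CTXpre and 27.3% ± 1.39 in CTXpre/CD4post mice (exact p = 0.786, or 0.571 with mice 1 and 2 not matched to each other).

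The share found in another mouse was lower with each inserted nucleotide up to 5. It was 27.5% at an overlap of 4 or more nucleotides, 28.1% at an overlap of 1 to 3 and 26.2% at exactly 0. It was 19.7% at 1 inserted nucleotide, 10.7% at 2, 7.14% at 3 and 4.35% at 4. At 5 to 7 inserted nucleotides it lay between 1.03 and 1.26%, and at 8 or more it was 1.46%. Just inside the rule, joins of exactly 0 made up 9.27% of clonotypes, and just outside it, joins of 1 nucleotide made up 14.4%.

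**Figure D1:**
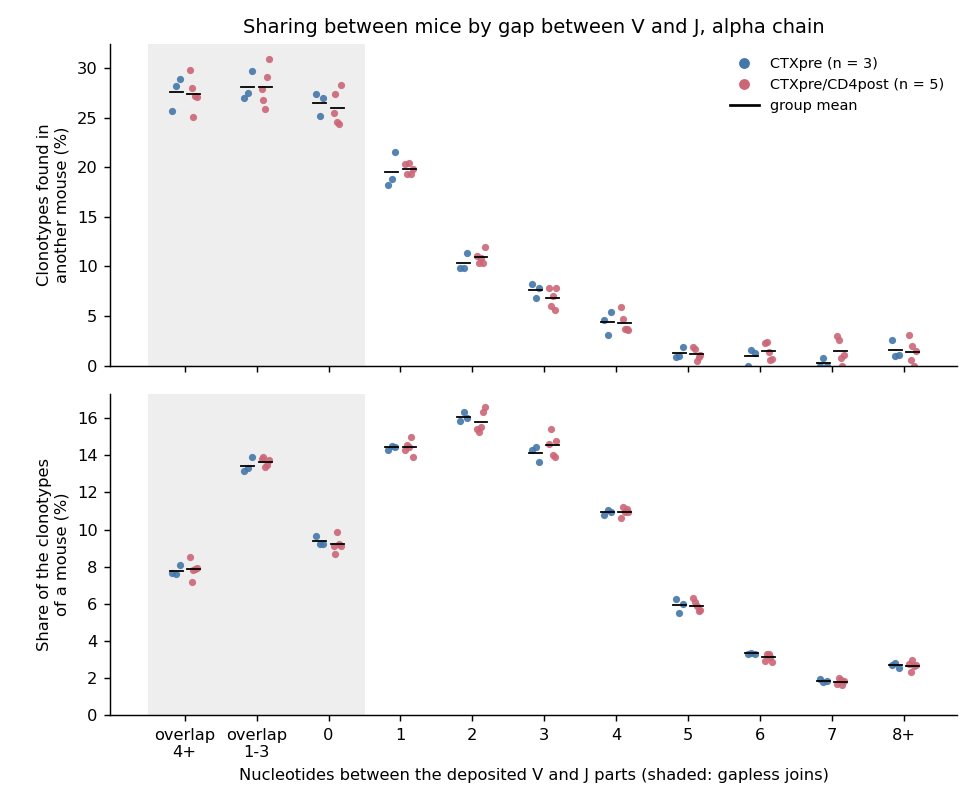
Percent of α-chain clonotypes found in another mouse (top) and percent of all clonotypes of a mouse (bottom) against the number of nucleotides between the deposited V and J parts, with 1 point per mouse, a line at each group mean and gapless joins shaded. Sharing is level at 26.2 to 28.1% across the gapless joins and is 19.7% at 1 nucleotide and 4.35% at 4, with the groups intermingled.

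Gapless joins were a larger part of clonotypes found in several mice than of those in 1 mouse. Of 48640 distinct clonotypes, 13585 were gapless. Gapless joins were 26.1% of those in 1 mouse, 50.4% in 2 mice, 61.3% in 3, 67.6% in 4, 75.3% in 5, 81.4% in 6 and 85.0% in 7. In all 8 mice there were 10 gapless and 3 gapped joins (76.9% gapless), below the shares in 6 and 7 mice. Germline-matched joins were 31.5% of the gapless joins in 1 mouse and 8 of the 10 in all 8 mice.

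Within the gapless joins, those matched to the germline throughout differed from those with a mismatch. Found in another mouse were 41.7% ± 1.58 of germline-matched, 18.1% ± 1.01 of mismatched gapless and 8.92% ± 0.608 of gapped joins without a full match (SD, n = 8 mice), and no 2 classes overlapped between mice. Mean reads per clonotype were 1.88 ± 0.212, 1.47 ± 0.191 and 1.48 ± 0.250. The germline-matched mean was higher than the mismatched one by 0.405 reads in 8 of 8 mice (exact sign-flip p = 0.0078, adjusted 0.00827 over 18 comparisons). Mismatched gapless and gapped joins differed by −0.00671 reads, with 3 of 8 mice positive and a range of −0.116 to 0.0817 (exact p = 0.797). Clonotypes of 1 read were 64.3% of the germline-matched, 74.9% of the mismatched and 76.6% of the gapped joins.

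**Figure D2:**
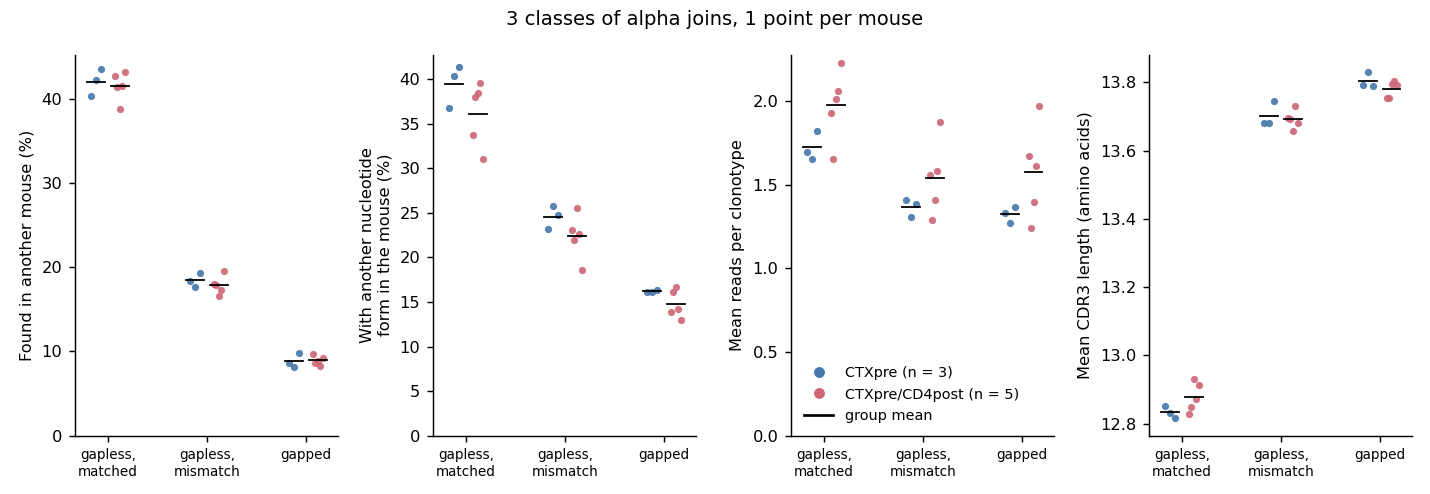
Share found in another mouse, share with another nucleotide form in the same mouse, mean reads per clonotype and mean CDR3 length for germline-matched gapless joins, gapless joins with a mismatch and gapped joins, with 1 point per mouse and lines at group means. Germline-matched joins stand apart in sharing (41.7%), in other forms and in length (12.9 amino acids), whereas mean reads overlap between classes over mice, at means of 1.88, 1.47 and 1.48; the length axis does not start at 0.

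Over all gapless joins, mean reads per clonotype were 1.63 ± 0.196, against 1.48 ± 0.249 for gapped joins. The log2 ratio averaged 0.15 and ran from 0.03 in CTXpre/CD4post mouse 1 to 0.22 in CTXpre/CD4post mouse 3, above 0 in 8 of 8 mice (exact sign-flip p = 0.0078). Without clonotypes of 1 read it was 0.09 (exact p = 0.141). The ratios of the CTXpre mice were 0.18 to 0.19, within the 0.03 to 0.22 of the CTXpre/CD4post mice (exact p = 0.786).

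The CDR3 was shorter in gapless joins, which the rule itself brings about in part, since fewer nucleotides lie between the segments. It averaged 13.4 amino acids, against 13.8 in gapped joins, a difference of −0.421 in the mean over mice and of −0.471 to −0.395 in single mice. Germline-matched joins averaged 12.9 ± 0.0416 amino acids and mismatched ones 13.7 ± 0.0287. CDR3s of 12 amino acids were 25.3% of germline-matched joins, 17.4% of all gapless joins and 12.2% of gapped joins. At 16 amino acids the order was opposite, with 2.26, 4.72 and 8.36%. The difference in length was −0.437 ± 0.0322 in CTXpre and −0.412 ± 0.0145 in CTXpre/CD4post mice (exact p = 0.25). The deposited V and J parts spanned 14.02 and 28.7 nucleotides in gapless joins and 11.9 and 26.3 in gapped joins. This is a description only, since the rule used these ends. The spans are not nucleotides kept from the germline, because a deposited part can run beyond its match. In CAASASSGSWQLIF they were 22 and 38 nucleotides, against 13 and 29 matched.

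By exact match, gapless joins had lost fewer nucleotides from both segments on average. Germline-matched joins had lost 1.95 V and 2.497 J nucleotides on average, mismatched ones 2.17 and 2.76, and gapped joins 2.40 and 3.39. Over the 8 mice, neither gapless class overlapped with gapped joins in the mean nucleotides lost at either end, a description for which no test was run. Nucleotides common to the V and J ends were counted as kept at each end. The classes are also defined from the deposited and matched lengths, so part of the difference may be built in. The J segment was untrimmed in 27.3% of germline-matched, 32.0% of mismatched and 18.7% of gapped joins. The V segment was untrimmed in 35.4, 40.6 and 33.8%, and the ranges over mice of germline-matched (32.9 to 37.5%) and gapped joins (32.4 to 35.1%) overlapped. At the junction of germline-matched joins, 2655 (41.4%) had 1 or more nucleotides common to the V and J ends, so that the point of joining is not fixed, as in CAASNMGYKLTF. In 1723 joins there was 1 such nucleotide, in 664 there were 2, and the longest run was 6.

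Many of the nucleotides that matched neither germline end were palindromic. In clonotypes whose V segment was untrimmed, the first unmatched nucleotide was the complement of the last V nucleotide in 58.5% ± 1.13, against 24.8% ± 0.501 where V was trimmed (SD, n = 8 mice). The ranges over mice were 55.9 to 59.4% and 23.9 to 25.6%. At the J end the shares were 62.2% ± 1.94 and 23.8% ± 0.670. Both differences, 33.7 and 38.4 points, were positive in 8 of 8 mice (exact sign-flip p = 0.0078). The comparison was chosen after the data were seen. At a trimmed end the first unmatched nucleotide cannot be the next germline base, whereas no such limit applies at an untrimmed end. The 2 kinds of end therefore have unlike baselines. The bases of the recombination signal adjoined the annotated end for 114 of 116 V and 43 of 44 J segments. Among mismatched gapless joins alone, the complementary base stood at 75.0% of untrimmed V ends and 24.3% of trimmed ones.

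Of the 9915 mismatched gapless joins, 2737 (27.6%) had only unmatched nucleotides that continued a palindrome of up to 4 nucleotides from an untrimmed end, against 239 (0.651%) of gapped joins. Among mismatched gapless joins, such joins were shared more than others with as many unmatched nucleotides. At 1 unmatched nucleotide, 38.0% ± 3.70 of the palindromic and 19.8% ± 3.28 of the other mismatched gapless joins were found in another mouse. At 2 the shares were 36.2% ± 4.03 and 16.3% ± 2.88, and both differences were positive in 8 of 8 mice (exact sign-flip p = 0.0078, adjusted 0.0117 over 9 comparisons). At 3 they were 18.6 and 10.5%, positive in 7 of 8 mice (exact p = 0.0156, adjusted 0.0176), or in 6 of 8, at 17.5 and 10.3% (exact p = 0.0312), with CTXpre/CD4post mice 1 and 2 not matched to each other. Gapped joins did not follow at 1 nucleotide, with 19.4 and 20.8% (99 palindromic clonotypes, exact p = 0.68), but did at 2, with 33.7 and 12.2%. At 3 they were found in another mouse for 0 of 33 palindromic clonotypes, which allows a share of up to 9.09%, and for 10.3% of the others. The palindromic share was higher in 0 of 8 mice. With none of the 33 shared, every mouse had to have this sign. The exact sign-flip p of 0.0078 (adjusted 0.0117) therefore does not measure the uncertainty of so few clonotypes, and no reversal is concluded. Palindromic joins come only from segments left untrimmed, and the part of segment use in this difference was not tested. Of the 18 distinct gapless joins with a mismatch found in 6 or more mice, 12 were wholly palindromic and 15 held at least 1 palindromic nucleotide. Of the 14 gapped joins found as widely, none was wholly palindromic and 11 held at least 1, and 11 of the 14 were of TRAV12N-3.

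**Figure D3:**
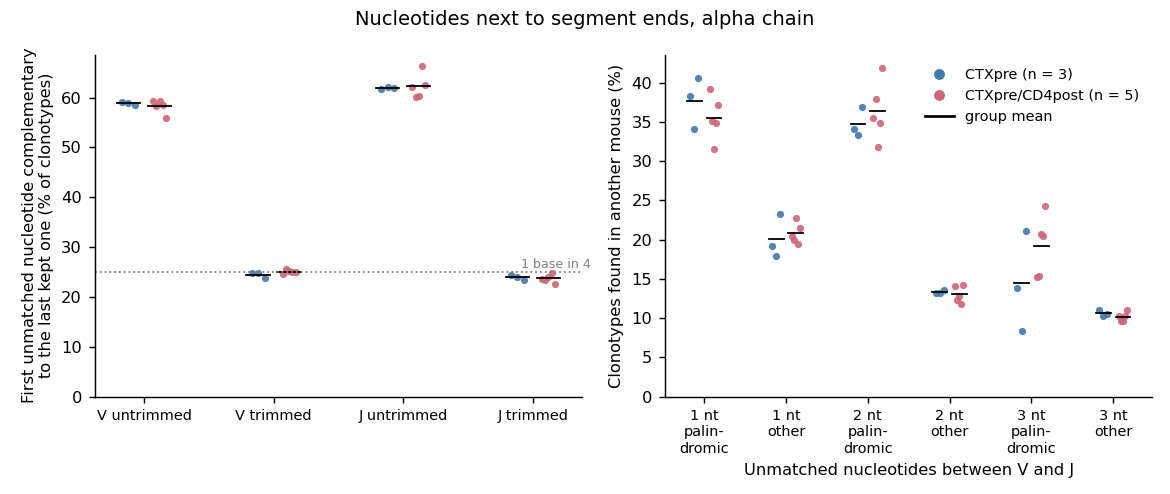
Left, percent of clonotypes whose first unmatched nucleotide is complementary to the last kept one, at untrimmed and trimmed V and J ends. The dotted line at 1 base in 4 is a mark and not a chance level for trimmed ends. Right, percent found in another mouse among all clonotypes, gapless and gapped together, with 1, 2 or 3 unmatched nucleotides that were palindromic or other; points are mice and lines group means. Untrimmed ends lie at 58.5 and 62.2%, trimmed ends at 24.8 and 23.8%, and palindromic joins lie above the others at 1 nucleotide (36.4 and 20.6%) and 2 (35.8 and 13.1%).

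Gapless joins also more often shared their amino acid sequence with another nucleotide form. In a mouse, 19.5% ± 1.98 of amino acid sequences with a gapless form had 2 or more nucleotide forms, against 5.18% ± 0.461 of those without one, 14.3 points more (8 of 8 mice, exact p = 0.0078). A sequence with more forms is more likely to include a gapless one, so the same was counted per nucleotide sequence, where the difference was 13.5 points (8 of 8 mice, exact p = 0.0078). Another form in the same mouse was present for 37.4% of germline-matched, 23.2% of mismatched and 15.3% of gapped joins. Over the 8 mice together, 8582 amino acid sequences had a gapless form, with 1.82 forms on average, and 137 of them (1.596%) were in all 8 mice. The 23526 without one had 1.21 forms, and 15 (0.0638%) were in all 8. These pooled values were not counted per nucleotide sequence. A sequence with more forms, or in more mice, is more likely to fall among those with a gapless form. The most forms, 17, belonged to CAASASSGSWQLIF, of which 8 were gapless and 3 germline-matched, under 13 V names. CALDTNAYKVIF, with TRAJ30, had 16 forms, of which 11 were gapless.

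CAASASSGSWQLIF, shown above, was the most-read gapless join in 5 of 8 mice. Its form with TRAV14N-1 and TRAJ22 had 47, 59 and 65 reads in the CTXpre mice and 42, 39, 55, 55 and 34 reads in the CTXpre/CD4post mice. It was the most-read clonotype of any kind in CTXpre mice 1 and 3 and in CTXpre/CD4post mouse 2. The groups overlapped, with means of 57.0 ± 9.17 and 45.0 ± 9.57 reads (exact p = 0.125, adjusted 0.393 over 16 clonotypes). In the remaining 3 mice the most-read gapless join was found in that mouse only. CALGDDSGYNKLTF (TRAV6N-7, TRAJ11) had 100 reads in CTXpre/CD4post mouse 3 and the join of TRAV14N-1 with TRAJ17 had 61 reads in mouse 4, both matched to the germline throughout. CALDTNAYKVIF in its form with TRAV16D-DV11 had 59 reads in mouse 5, and 2 nucleotides of it were unmatched.

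The other gapless joins of all 8 mice had few reads in each. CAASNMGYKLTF had 10, 18 and 4 reads in CTXpre and 12, 9, 15, 14 and 4 in CTXpre/CD4post mice. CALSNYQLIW (TRAV12N-3, TRAJ33), a CDR3 of 10 amino acids, had 9, 5 and 13 reads and then 2, 5, 2, 2 and 3, which overlapped at 5 (exact p = 0.0536, adjusted 0.357). CALSDRYSNNRLTL had 3, 8 and 7 and then 2, 4, 3, 6 and 2 reads. The remaining 6, among them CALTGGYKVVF (TRAV12N-3, TRAJ12), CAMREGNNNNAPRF (TRAV16N, TRAJ43) and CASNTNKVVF (TRAV12-2, TRAJ34), averaged 2.88 to 5.13 reads a mouse. The gapped comparison forms of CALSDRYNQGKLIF averaged 6.00, 5.00 and 4.75 reads, and none of the 16 clonotypes differed between groups after adjustment.

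Gapless joins formed a larger part of abundant clonotypes in CTXpre than in CTXpre/CD4post mice. Among clonotypes of 5 or more reads they were 64.5, 57.1 and 60% in the CTXpre mice and 37.4, 48.7, 44.5, 43.6 and 41.1% in the CTXpre/CD4post mice, and the groups did not overlap. The means were 60.5% ± 3.70 and 43.0% ± 4.20 (exact two-sided Mann–Whitney p = 0.0357, the smallest possible). All 7 measures of these clonotypes gave this same p and derive from the same clonotypes. Adjustment over them therefore leaves it at 0.0357 and adds no support. The read minimum was chosen after the data were seen. At 3 or more reads the difference fell from −17.5 to −4.21 points (exact p = 0.25), and with joins of exactly 0 as the only gapless ones it was 0.612 points the other way (exact p = 1). Germline-matched joins gave 41.2 and 26.7% (exact p = 0.0357).

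Both classes of abundant clonotypes were more numerous under CTXpre/CD4post. There were 49, 44 and 48 gapless clonotypes of 5 or more reads in the CTXpre mice and 71, 56, 57, 88 and 106 in the CTXpre/CD4post mice. Gapped ones numbered 27, 33 and 32 and then 119, 59, 71, 114 and 152. The means rose from 47.0 to 75.6 gapless and from 30.7 to 103 gapped clonotypes (exact p = 0.0357 for each), and the groups overlapped in neither. The reads they held went from 3.79 to 7.25% for gapless and from 2.80 to 12.7% for gapped joins. By bins, gapless joins were 29.0 and 29.1% of clonotypes of 1 read and 34.9 and 35.1% of those of 2 to 4 reads in CTXpre and CTXpre/CD4post. They were 61.9 and 46.1% at 5 to 9 reads and 53.3 and 34.6% at 10 or more, each with exact p = 0.0357 and 0.0952 after adjustment over 8 bins and classes. Germline-matched joins were 42.3 and 28.5% at 5 to 9 reads (exact p = 0.0357, adjusted 0.0952) and 34.4% ± 18.4 and 21.3% ± 9.80 at 10 or more (exact p = 0.393, adjusted 0.629). At 10 or more reads all gapless joins, germline-matched or not, were 21 of 39 clonotypes in the 3 CTXpre mice and 89 of 262 in the 5 CTXpre/CD4post mice. Of the germline-matched clonotypes with 10 or more reads, 13 of 14 in CTXpre and 34 of 51 in CTXpre/CD4post mice were found in another mouse. Of the gapped ones it was 3 of 18 in CTXpre and 40 of 172 in CTXpre/CD4post mice, and 23 of 172 with mice 1 and 2 not matched to each other. A clonotype abundant in several mice counts once in each, so these counts are not independent. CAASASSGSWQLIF with TRAV14N-1 and TRAJ22 counts in all 3 CTXpre and all 5 CTXpre/CD4post mice. The 3 gapped ones in CTXpre were forms of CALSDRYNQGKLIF, all in mouse 3. In bulk RNA, more cells of a clone and more RNA per cell cannot be told apart.

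**Figure D4:**
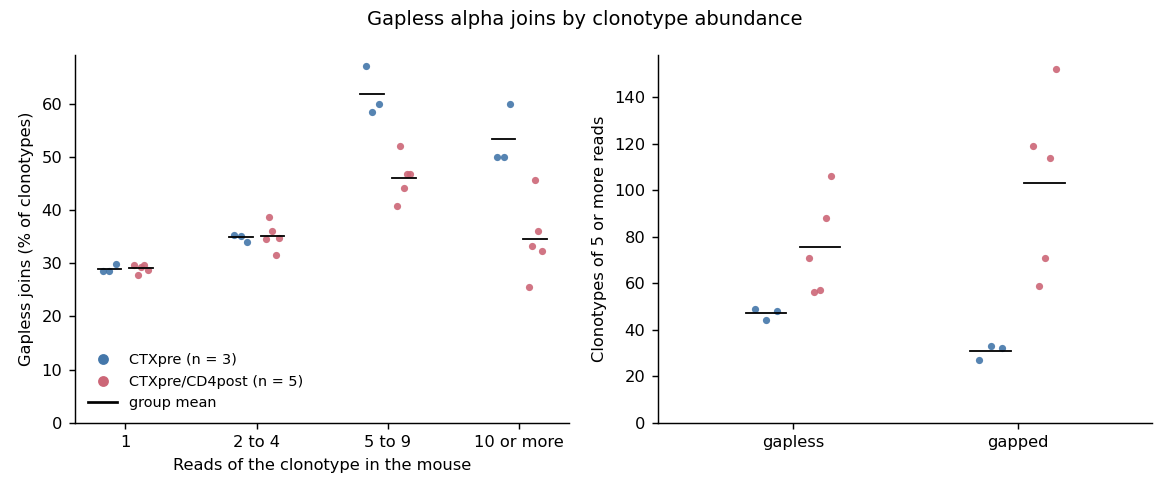
Left, gapless joins as percent of the clonotypes with 1, 2 to 4, 5 to 9 and 10 or more reads in a mouse; right, number of gapless and gapped clonotypes of 5 or more reads; points are mice and lines group means. The groups coincide up to 4 reads and are apart at 5 to 9 reads, at 61.9% in CTXpre and 46.1% in CTXpre/CD4post, and the gapped clonotypes rise from a mean of 30.7 to 103.

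J segments differed in how often they formed gapless joins. The use of each segment among gapless and gapped clonotypes was compared with edgeR over 43 J segments with mouse as a block, and 23 (53.5%) passed at an adjusted p under 0.05, 13 (30.2%) higher and 10 (23.3%) lower among gapless joins. The largest difference was in TRAJ24, at 0.411% ± 0.107 of gapless and 1.47% ± 0.199 of gapped clonotypes, lower in 8 of 8 mice (log2 fold change −1.84 ± 0.12 SE, edgeR adjusted p = 1.1e-12). TRAJ5 was 0.971% against 0.519% (log2 0.90 ± 0.11, edgeR adjusted p = 1.4e-07) and TRAJ7 3.07% against 1.79% (log2 0.77 ± 0.07, edgeR adjusted p = 2.6e-09). TRAJ53 and TRAJ22, the latter the J segment of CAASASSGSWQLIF, were higher by 0.70 ± 0.11 and 0.41 ± 0.06 on the log2 scale. TRAJ11 and TRAJ12 were higher by 0.53 and 0.50, and TRAJ32, TRAJ40 and TRAJ45 changed by −0.55, −0.53 and −0.42.

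Several of these differences did not remain when joins were counted as gapless only where they matched the germline throughout. TRAJ24 then stood at a log2 fold change of 0.21 ± 0.15 (edgeR adjusted p = 0.319), TRAJ7 at −0.27 ± 0.10 (0.0948) and TRAJ22 at −0.49 ± 0.07 (1.7e-06), with the direction turned. TRAJ5 kept its direction at 0.37 ± 0.16 (edgeR adjusted p = 0.170) and TRAJ12 at 0.060, but neither was called. TRAJ53 was higher by both counts, at 0.83 ± 0.12 in the exact match (edgeR adjusted p = 1.5e-06), and TRAJ32 and TRAJ40 were lower by both, at −0.39 and −0.31. The deposited J part of TRAJ24 was shorter than the germline match in 90.2% of its clonotypes, at 25.2 nucleotides against 29.0 matched, whereas this was so for 2.55% of clonotypes over all J segments. For TRAJ22 and TRAJ7 it was longer than the match in 42.4 and 38.1%, against 22.0% over all. Over the 8 mice pooled, gapless joins were 10.9% of TRAJ24 clonotypes (614) and 45.2% of TRAJ5 clonotypes (354), whereas germline-matched ones ranged from 8.48% (TRAJ37) to 20.97% (TRAJ53) among the J segments of the TRA locus.

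**Figure D5:**
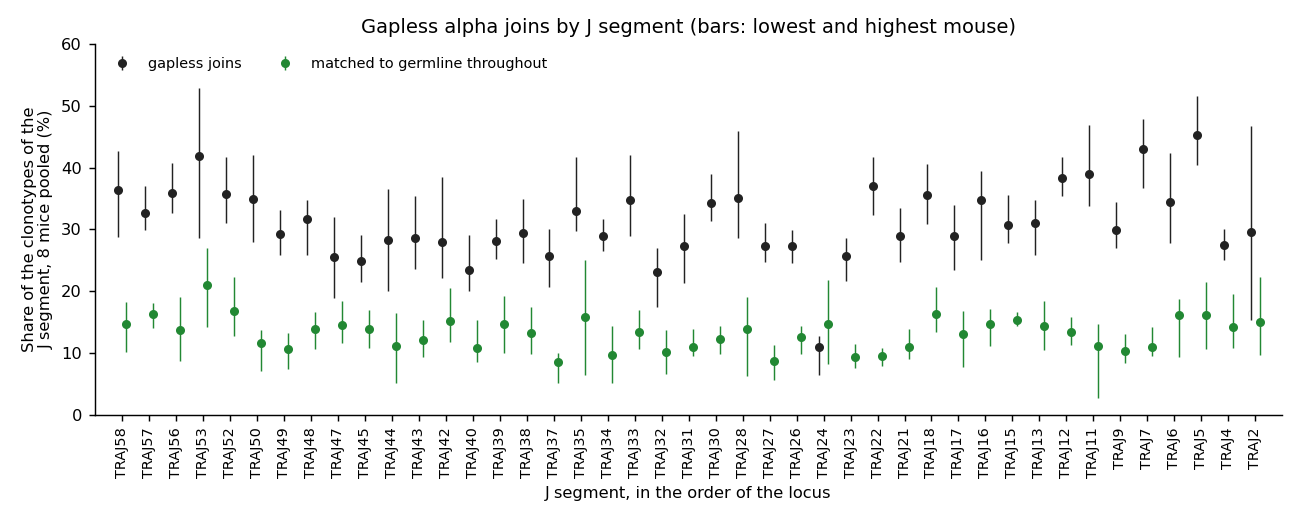
Percent of the clonotypes of each J segment, in the order of the locus, that were gapless (black) or matched to the germline throughout (green), pooled over 8 mice with bars from the lowest to the highest mouse. TRAJ24 is the only segment whose gapless share, 10.9%, lies below its germline-matched share, 14.7%, and TRAJ5, TRAJ7 and TRAJ53 have the highest gapless shares.

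For V segments, 35 of 93 (37.6%) passed in the same edgeR comparison, 16 (17.2%) higher and 19 (20.4%) lower among gapless joins. TRAV9-2 was 0.0503% of gapless and 0.642% of gapped clonotypes (log2 −3.58 ± 0.34 SE, edgeR adjusted p = 6.7e-14), and by exact match the difference was 0.12 ± 0.28 (0.789). The deposited V part of TRAV9-2 was shorter than the match in 100% of its 242 clonotypes, at 3.00 nucleotides against 11.2 matched. Members of the TRAV14 family differed in direction. TRAV14D-3-DV8, TRAV14N-3 and TRAV14D-2 changed by −1.04 ± 0.19, −0.90 ± 0.14 and −0.90 ± 0.17, and by −1.28, −1.13 and −0.61 in the exact match. Outside the 10 largest differences, and named after their values were seen, TRAV14D-1 and TRAV14N-1 were higher, by 0.54 ± 0.11 and 0.28 ± 0.08 (edgeR adjusted p = 6.0e-05 and 0.00546), and by 0.66 and 0.53 in the exact match. TRAV14N-1, of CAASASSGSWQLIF, was gapless in 531 of 1532 clonotypes (34.7%). TRAV8D-2 was higher by 0.68 ± 0.22 (edgeR adjusted p = 0.0108) and by 1.39 ± 0.26 in the exact match, TRAV15N-1 changed by −1.63 and −1.72, and TRAV10N by −0.74 and −0.64, the last 2 with edgeR adjusted p = 0.139 and 0.224 in the exact match. TRAV9D-2, TRAV9N-3 and TRAV15D-1-DV6D-1 changed by 0.94, 0.85 and −0.90, and by −0.79, 0.18 and 0.83 with no call in the exact match. With DESeq2 in place of edgeR, TRAV8D-2, TRAV15N-1, TRAV10N and TRAV15D-1-DV6D-1 lost their calls. TRAV8D-2 also lost its call with reads in place of clonotypes. Leaving out CTXpre/CD4post mouse 1 or 2 did so for TRAV10N, and leaving out CTXpre mouse 2 for TRAV15D-1-DV6D-1. The deposited V part was longer than the match in 73.8% of TRAV9D-2 and 71.6% of TRAV9N-3 clonotypes and shorter in 86.5% of those of TRAV15D-1-DV6D-1, against 30.2% and 1.20% over all V segments. Within the gapless joins, no J segment of 43 and no V segment of 64 differed between groups in edgeR (0% called in each). At an unadjusted p under 0.05 there were 3 J segments and 1 V segment, and DESeq2 also made 0 calls, with 0 and 1 at an unadjusted p under 0.05.

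Gapless joins were spread over 3116 of 4105 V–J pairs, and the 10 leading pairs held 747 (4.58%) of them. TRAV19 with TRAJ56 had 91 gapless clonotypes in all, 7 to 14 a mouse, and TRAV16N with TRAJ22 had 85. TRAV12N-3 was in 5 of the 10 leading pairs, with TRAJ31 (82), TRAJ15 (78), TRAJ7 (78), TRAJ12 (76) and TRAJ26 (63). In the same order, 32.0, 28.2, 47.9, 43.4 and 32.5% of the clonotypes of these pairs were gapless. Over all J segments, TRAV12N-3 was gapless in 30.0% of its 3204 clonotypes. Its use did not differ between gapless and gapped joins (log2 −0.04 ± 0.06 SE, edgeR adjusted p = 0.681). In the exact match it was higher by 0.28 ± 0.09 (edgeR adjusted p = 0.0173). TRAV14N-1 with TRAJ22 was gapless in 65 of 103 clonotypes (63.1%) and held 556 reads, 54 to 93 a mouse. TRAV16N with TRAJ30 had 67 gapless clonotypes and 73 of its 199 gapless reads in CTXpre/CD4post mouse 5, and TRAV19 with TRAJ57 had 62. Among segments that mark other cells, the TRAV11 family with TRAJ18, the pair of invariant NKT cells, was gapless in 9 of 31 clonotypes, neither of the 2 with TRAV11 itself being gapless, and TRAV1 with TRAJ33, the pair of MAIT cells, in 6 of 12. TRDV segments, typical of γδ T cells, were gapless in 126 of 451 clonotypes (27.9%). The TRAV7 family, which holds the V segment of the Pmel-1 receptor, was gapless in 2752 of 9151 (30.1%), near the 30.7% of all clonotypes.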

How the data were processed

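The TCR α-chain was amplified from 100 ng RNA by 5′ cDNA synthesis and nested PCR and sequenced on a MiSeq. Reads were trimmed (Scythe, Sickle), assembled into clonotypes with MiXCR (version not given in the sources used here), and down-sampled to 10000 reads per library with VDJtools. The deposited count gives the reads that each clonotype kept in the authors' down-sampling, and the deposited V end and J start give the position of each segment in the CDR3. β-chain tables were not used here. The labels name the build mm10.

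Members were rows with J start − V end − 1 of 0 or less, and the members and lists were chosen with earlier results of these data known. In 40 rows no V end was given. V and J names (116 and 44) were all found in the GENCODE annotation of GRCm38, and each CDR3 was matched base by base to their germline ends, from the start for V and from the end for J, to the first mismatch. Classes within a mouse were compared by exact sign-flip tests over 8 mice and groups by the exact Mann–Whitney U-test (3 against 5), with Benjamini-Hochberg adjustment. Segment use was fitted to clonotype numbers with edgeR 4.0.16 (quasi-likelihood, TMM, a minimum of 10 clonotypes in at least 3 columns, mouse as block between classes) in R 4.3.3, with DESeq2 1.42.0 as an alternative, and the fits were tested on simulated data. Python 3.11.15, pandas 2.3.3, numpy 2.4.6, scipy 1.17.1 and matplotlib 3.10.9 were used. Named segments were those with an adjusted p under 0.05 and the largest fold changes, up to 10 per comparison. Named clonotypes were the most-read gapless join of each mouse, those in all 8 mice, and the 3 leading gapped joins. Alternatives were other definitions of a gapless join, clonotype identity, filters, tools, and each mouse left out.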

Additional observations from a re-analysis of the deposited data

How the results depend on the processing

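Of 133 values of the main comparisons under other settings, 120 kept their direction and their side of the threshold. The log2 ratio of mean reads was 0.0868 without clonotypes of 1 read. Small differences between groups turned sign: the clonotype share was −0.190 points with joins of exactly 0 and −0.0144 without clonotypes of 1 read, the reads share was 0.553 by germline match, and the share found in another mouse was 1.14 when only the nucleotide sequence had to match. Among clonotypes of 5 or more reads the difference was −4.21 points at a minimum of 3 reads and 0.612 with joins of exactly 0. With joins of exactly 0, calls fell to 10 J and 10 V segments. V calls were 18 with reads in place of clonotypes, 8 with V families and 19 with no mouse block. With joins of exactly 0 the log2 fold change turned for TRAJ22 (−0.61), TRAJ7 (−0.38), TRAJ32 (0.079), TRAJ45 (0.13) and TRAV15D-1-DV6D-1 (0.67). By germline match it turned for TRAJ22 (−0.49), TRAJ7 (−0.27), TRAJ11 (−0.25), TRAJ24 (0.21), TRAJ45 (0.11), TRAV9-2 (0.12), TRAV9D-2 (−0.79) and TRAV15D-1-DV6D-1 (0.83). The cause was not tested. With each mouse left out, the clonotype share differed by −0.140 to 0.421 points, the share found in another mouse by −0.522 to 0.538, and the share among clonotypes of 5 or more reads by −19.2 to −15.5, where exact p-values from 0.0571 to 0.0952 are the smallest such group sizes allow. The 4 counts of segment calls stayed within 1.5 times.

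With mice 1 to 3 paired by number as a replicate block, differences between groups were 0.126 points (clonotype share), −0.41 (reads share), −0.0356 (log2 ratio of reads), 0.0317 amino acids, −0.715 points (found in another mouse) and −17.0 (5 or more reads, exact p = 0.25, the smallest 3 pairs can give), and no J or V segment was called. The numbers pair nothing known, and correlations of same-numbered mice over 43 J segments were 0.288, −0.244 and 0.0958. With most clonotypes at 1 read, depth limits statements on single clonotypes.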
